A study of Mus musculus with 16 samples.

Results

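Male SAMP1 mice of 10 weeks were compared with male SAMR1 mice of the same age for the miRNAs of the kidney cortex. The 8 arrays titled with this age, 4 of SAMP1 (animals 3, 4, 5 and 6) and 4 of SAMR1 (animals 1, 4, 5 and 7), were taken from a series of 16, in which the other 8 came from 50-week-old mice of both strains. SAMP1 is a senescence-accelerated prone strain and SAMR1 a senescence-accelerated resistant strain, and both descend from AKR/J mice. They are separate inbred lines and not littermates, so the difference between them is one of strain. No mouse of these groups carried a transgene or was treated. Total RNA of 1 piece of cortex per mouse was labelled with Cy3 and hybridized to a 1-colour Agilent array with 56430 spots for 1881 mouse miRNAs. All 8 arrays lay on 1 slide, SAMP1 in row 1 and SAMR1 in row 2, so that strain and slide row cannot be told apart. Nothing in the sources says that the mice shared litters or were handled in blocks, and the p-values measure the spread between kidneys within the 4 groups of all 16 arrays, which the fit pooled.

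A miRNA is a short RNA that is cut from a hairpin precursor and loaded into an Argonaute protein, where it lowers the output of messenger RNAs. Targets are found mainly through the seed, the bases 2 to 8 from its 5′ end, so that miRNAs with the same seed share most of their predicted targets. Many miRNA genes lie close together and are cut from 1 transcript, and others lie within the introns of protein-coding genes. In the kidney, miRNAs of the miR-192/194, miR-30, miR-10 and miR-200 groups are abundant in tubule epithelium, miR-126 marks endothelium, miR-142 marks leukocytes and miR-144/451 marks red blood cells. SAMP1 kidneys develop fibrosis and glomerulosclerosis with age, and 10 weeks is the young age of the study.

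The mature sequences of the miRNAs on which the comparison turned are given 5′ to 3′ as RefSeq lists them for GRCm38.p6, with the seed in capitals. Names of 1608 of the 1881 miRNAs matched an entry there, and 16 of the 17 miRNAs that passed the test matched one. miRNA-1897-5p is named only. The miR-181 family is shown whole because its 4 mature 5p forms share 1 seed and 2 of them passed the test.
miRNA-181a-5p: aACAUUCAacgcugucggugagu
miRNA-181b-5p: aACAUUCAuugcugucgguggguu
miRNA-181c-5p: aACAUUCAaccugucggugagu
miRNA-181d-5p: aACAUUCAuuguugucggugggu
The miR-192/194 pair is shown because both arms of the miR-192 hairpin and its neighbour passed.
miRNA-192-5p: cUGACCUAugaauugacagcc
miRNA-192-3p: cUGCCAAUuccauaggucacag
miRNA-194-5p: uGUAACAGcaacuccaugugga
The X-linked cluster is shown because it holds the miRNA that the study went on to inhibit, miRNA-503-5p, whose seed shares 6 of 7 bases with that of miRNA-322-5p.
miRNA-322-5p: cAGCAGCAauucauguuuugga
miRNA-503-5p: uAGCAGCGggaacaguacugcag
miRNA-450a-5p: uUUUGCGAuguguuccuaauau
The remaining 6 sequences are of other miRNAs among the larger differences.
miRNA-3095-3p: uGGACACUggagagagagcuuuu
miRNA-3091-5p: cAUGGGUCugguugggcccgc
miRNA-342-3p: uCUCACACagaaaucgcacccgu
miRNA-335-5p: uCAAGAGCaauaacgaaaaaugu
miRNA-34a-5p: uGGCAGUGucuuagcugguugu
miRNA-193b-3p: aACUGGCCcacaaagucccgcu

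The arrays gave for each miRNA a total gene signal, the background-subtracted intensity summed over those of its probes that were detected, in arbitrary units. Signals were scaled to the 90th percentile of their array. A miRNA called not detected was set to the lowest detected signal of its array, its floor, which was 1.15 to 1.48 in SAMR1-10wk and 0.989 to 1.2 in SAMP1-10wk on the scaled axis. The number of detected miRNAs was 354 to 381 in SAMR1-10wk and 371 to 406 in SAMP1-10wk, and those ranges overlapped (exact permutation p = 0.171, two-sided). The 90th percentile before scaling was 10.1 to 11.0 in SAMR1-10wk and 10.9 to 15.4 in SAMP1-10wk (exact permutation p = 0.0571). The labelling spike-in, an RNA added in equal amount to each reaction, read 2.88 to 2.91 in SAMR1-10wk and 2.91 to 3.04 in SAMP1-10wk on the log10 scale. All 4 SAMP1-10wk arrays stood above all 4 of SAMR1-10wk for it (exact permutation p = 0.0286, the smallest that 4 against 4 can give, and 0.19 after Benjamini-Hochberg adjustment over 10 measures of the arrays). The part of these measures in the results was not tested. Between 2 arrays of 1 group, log2 signals of miRNAs correlated at 0.991 to 0.997, across miRNAs and not across independent samples.

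After scaling, most miRNAs differed little between the strains at 10 weeks. Of the 381 miRNAs that were tested, those detected on all 4 arrays of at least 1 of the 4 groups of the series, 77.2% differed by less than 20%, and the median difference was 0.02 on the log2 scale. Without scaling this median was 0.28. A total of 17 miRNAs (4.46% of those tested) passed an adjusted p of 0.05 in limma with Benjamini-Hochberg adjustment. Of these, 16 were higher in SAMP1-10wk, which is 4.20% of the tested miRNAs, and 1 was lower, which is 0.262%. The differences of 5 miRNAs (1.31%), all higher in SAMP1-10wk, also exceeded 2-fold: miRNA-3095-3p, miRNA-3091-5p, miRNA-342-3p, miRNA-181d-5p and miRNA-335-5p. The first 3 were detected in no SAMR1-10wk kidney and entered the test only through SAMP1 groups, and with only those miRNAs tested that were detected on all 16 arrays the 1 left over 2-fold was miRNA-181d-5p. At an unadjusted p of 0.05, 76 miRNAs (19.9%) passed. The groups of all 17 did not overlap, which was also the case for 90 of the 381 tested miRNAs (23.6%), 61 with SAMP1-10wk above (16.0%) and 29 with SAMP1-10wk below (7.61%). Taking the 90th or the 75th percentile over only those miRNAs detected on all arrays shifted the median difference to -0.08 and -0.09, and the split of higher to lower miRNAs at the same adjusted p from 16 and 1 to 15 and 5, and to 12 and 6. These scalings shift each difference by nearly the same amount, which is smaller than any of the 17, so none of their directions could turn.

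**Figure D1:**
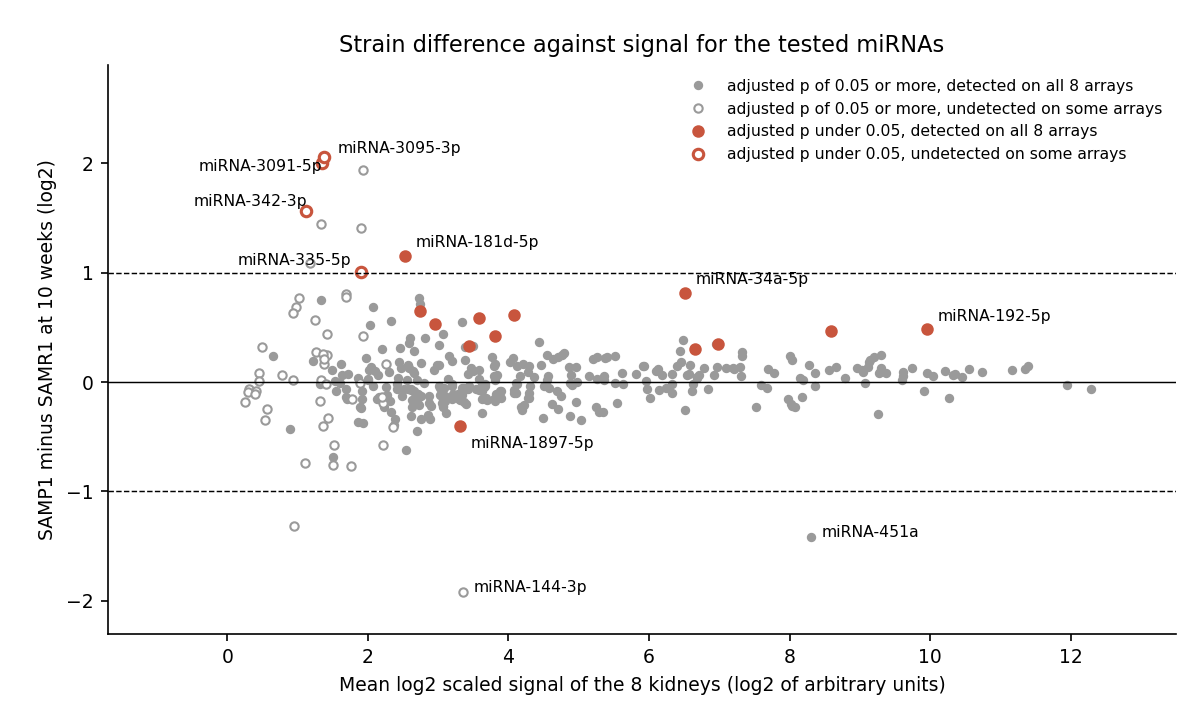
The strain difference of each tested miRNA (log2, SAMP1 minus SAMR1 at 10 weeks, vertical axis) is plotted against its mean log2 scaled signal over the 8 kidneys (horizontal axis). Coloured points are the 17 miRNAs at an adjusted p under 0.05, open points were undetected on some of the 8 arrays, and the coloured points with a difference above 1 lie at the dim end of the axis.

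**Figure D2:**
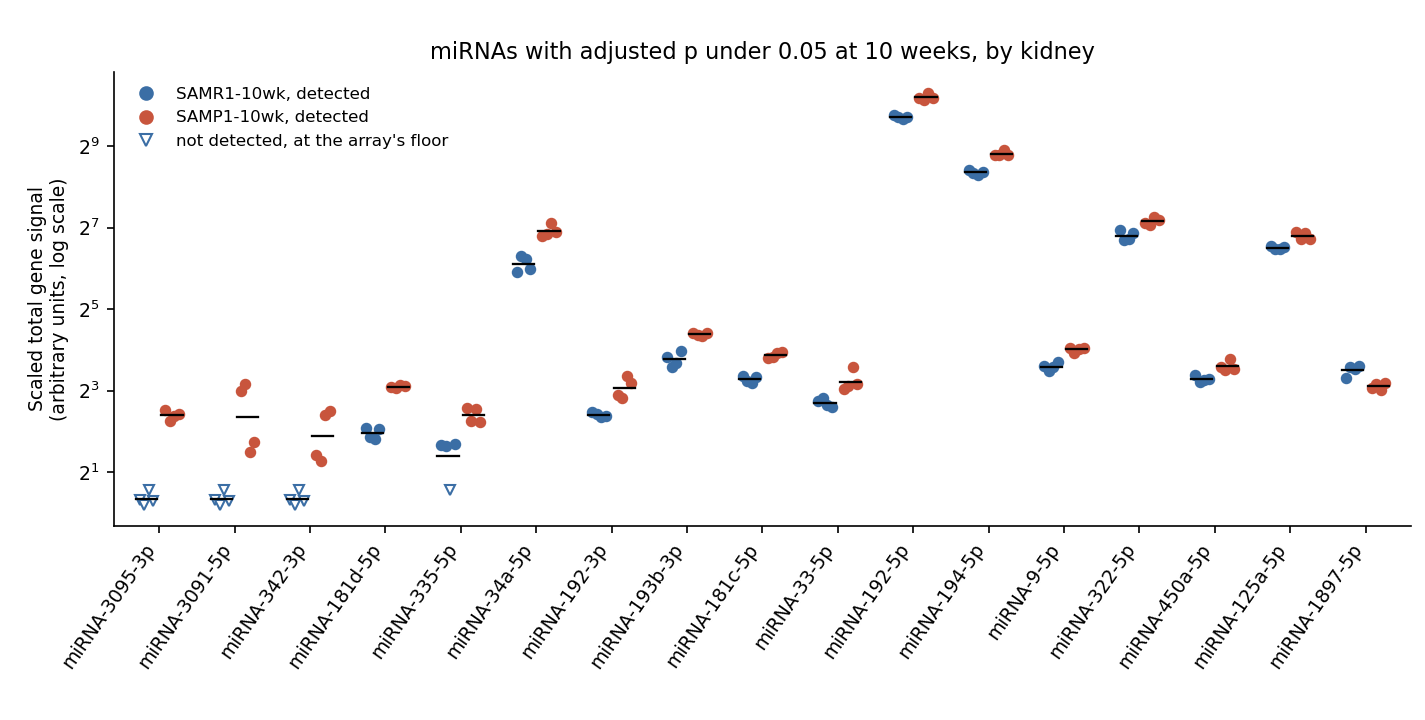
Each point is 1 kidney, with the scaled total gene signal on a log axis, for the 17 miRNAs at an adjusted p under 0.05. The SAMR1-10wk and SAMP1-10wk kidneys do not overlap for any of them, and open triangles mark miRNAs not detected on an array, drawn at its floor.

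For 3 miRNAs every SAMP1-10wk kidney gave a detected signal and no SAMR1-10wk kidney did. No miRNA showed the reverse. miRNA-3095-3p, a miRNA of little known function from the Lpar1 gene on chromosome 4, read 5.80, 4.79, 5.19 and 5.38 in SAMP1-10wk. The log2 difference from the SAMR1-10wk floors was 2.06 (standard error 0.39, limma adjusted p = 0.00514). Because the floor stands in for an undetected signal, the size of this difference depends on it and is no limit on the true fold, here and for the other 2. Its 2 probes differed less than this: the mean of their spots was 1.32 and 1.28 times as high in SAMP1-10wk as in SAMR1-10wk, and the kidneys of the strains overlapped for both. With the processed signal, which averages all spots whether detected or not, the log2 difference was 0.38 (adjusted p = 0.236).

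miRNA-3091-5p, which lies in the ribosomal protein gene Rps21 on chromosome 2, read 7.95, 8.89, 2.81 and 3.36 in SAMP1-10wk, above the SAMR1-10wk floors (log2 difference 2.01, standard error 0.48, adjusted p = 0.0272). The SAMP1-10wk kidneys themselves fell into a brighter and a dimmer pair. Both probes of this miRNA, of only 11 and 12 bases, gave higher spot signals in every SAMP1-10wk kidney, by 3.7 and 3.48 times, and the processed signal differed by 1.83 on the log2 scale (adjusted p = 0.0339). Without single kidneys the adjusted p ranged up to 0.0816, and it exceeded 0.05 for 6 of the 8: SAMR1-10wk animals 1, 4, 5 and 7 and SAMP1-10wk animals 3 and 4.

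miRNA-342-3p, which is hosted by Evl on chromosome 12 and is abundant in lymphocytes, read 2.69, 2.43, 5.26 and 5.62 in SAMP1-10wk, above the SAMR1-10wk floors (log2 difference 1.56, standard error 0.33, adjusted p = 0.0112). Its spot signals were 1.38 and 1.4 times as high in SAMP1-10wk, and for both probes the strains did not overlap. The processed signal differed by 0.47 on the log2 scale (adjusted p = 0.301). The other arm, miRNA-342-5p, gave no detected signal on any of the 8 arrays.

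The members of the miR-181 family, known for setting the sensitivity of T cell receptor signalling, were not alike. miRNA-181d-5p read 4.26, 3.63, 3.495 and 4.15 in SAMR1-10wk and 8.48, 8.36, 8.86 and 8.66 in SAMP1-10wk. The kidneys of each strain lay close together, and every SAMP1-10wk kidney was above every SAMR1-10wk kidney. The difference was 2.22-fold (log2 1.95 ± 0.14 against 3.1 ± 0.04, SD, n = 4, limma adjusted p = 3.55e-08), the smallest adjusted p of all tested miRNAs. miRNA-181c-5p read 10.3, 9.35, 9.16 and 10.1 in SAMR1-10wk and 13.9, 14.2, 15.2 and 15.3 in SAMP1-10wk, a 1.50-fold difference (log2 0.59, standard error 0.08, adjusted p = 0.000400). Both are cut from a pair of genes at chr8:84178716-84178945, minus strand of GRCm38, where the annotation used has no other gene. Their mature sequences, printed above, were identical at 18 of 23 aligned positions.

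The other tested 5p members of the family did not pass. miRNA-181a-5p read 69.8, 62.1, 65.8 and 71.3 in SAMR1-10wk and 72.95, 69.96, 75.7 and 73.4 in SAMP1-10wk, and miRNA-181b-5p read 22.8, 20.2, 18.0 and 20.3 against 20.1, 19.97, 22.7 and 21.1. Both sets of kidneys overlapped, with log2 differences of 0.12 (standard error 0.08, adjusted p = 0.370) and 0.05 (standard error 0.14, adjusted p = 0.873). Of 10 mature miRNAs of the family on the array, 5 were tested and 2 rose, beside 4.20% of all tested miRNAs. The passenger arm miRNA-181a-1-3p, detected in 1 SAMR1-10wk kidney, was tested only because all 4 SAMP1-10wk kidneys had it, and it had a log2 difference of 1.09 (adjusted p = 0.0763). The median of the other 4 members was 0.35, where the 330 tested miRNAs detected on all 8 arrays had 0.02. On the probes of miRNA-181d-5p the spot signals were 1.72 and 1.46 times as high in SAMP1-10wk, below the 2.22-fold of the summed signal, and its log2 difference was 0.60 with the processed signal (adjusted p = 7.80e-05).

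miRNA-335-5p, which lies in the imprinted gene Mest on chromosome 6, read 3.18, 3.13 and 3.26 in 3 SAMR1-10wk kidneys, was not detected in animal 5, and read 6.00, 4.76, 5.86 and 4.7 in SAMP1-10wk. Every SAMP1-10wk kidney was above every SAMR1-10wk kidney. The difference of 2.01-fold (log2 1.01, standard error 0.25, adjusted p = 0.0311) lay next to the limit of 2-fold and rested in part on the undetected kidney: without SAMR1-10wk animal 5 it was 0.73 on the log2 scale (adjusted p = 0.0549). The adjusted p also exceeded 0.05 without SAMP1-10wk animals 3, 4, 5 or 6 and reached 0.0905. In 11 of 17 other settings the miRNA did not pass both thresholds, among them the 90th percentile over miRNAs detected on all arrays (0.91, adjusted p = 0.0380), quantile normalization (adjusted p = 0.141) and the 10-week arrays alone (adjusted p = 0.0578). Only the longer of its probes, of 19 bases, gave a signal well above 0, with 11.8 to 14.4 in SAMR1-10wk and 20.8 to 26.4 in SAMP1-10wk. The other arm, miRNA-335-3p, was not detected.

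The miRNAs of the miR-192/194 genes, the best known of proximal tubule epithelium and studied in kidney fibrosis, rose together. miRNA-192-5p read 876, 834, 819 and 844 in SAMR1-10wk and 1154, 1126, 1272 and 1163 in SAMP1-10wk. miRNA-194-5p read 344, 324, 314 and 328 in SAMR1-10wk and 443, 439, 479 and 443 in SAMP1-10wk. The strains were separate for both, with gaps wide against the spread of the 4 kidneys. The differences were 1.397-fold for miRNA-192-5p (log2 0.48, standard error 0.09, adjusted p = 0.00410) and 1.38-fold for miRNA-194-5p (log2 0.46, standard error 0.07, adjusted p = 0.000617). These are bright miRNAs, for which the error that the scanner software gives for the signal of 1 array was 7.22% to 7.46%.

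miRNA-192-3p, the minor arm of the same hairpin, read 5.59, 5.41, 5.10 and 5.24 in SAMR1-10wk and 7.38, 7.08, 10.4 and 9.15 in SAMP1-10wk. It was 1.57-fold higher (log2 0.65, standard error 0.11, adjusted p = 0.00371), and SAMP1-10wk animals 5 and 6 stood above 3 and 4. Mir192 and Mir194-2 lie at chr19:6264643-6264932 on the plus strand. A second miR-194 gene lies with Mir215 at chr1:185313319-185313692 in Iars2. miRNA-215-5p, which has the seed of miRNA-192-5p, was detected on none of the 8 arrays, and the array does not separate the mature products of the 2 miR-194 genes.

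The X-linked cluster of 7 miRNA genes at chrX:53047997-53054349, minus strand, holds miRNAs that are known for slowing the cell cycle. miRNA-322-5p, which has the seed of miR-15 and miR-16, read 124, 104, 105 and 116 in SAMR1-10wk and 138, 134, 154 and 145 in SAMP1-10wk, a 1.27-fold difference (log2 0.35, standard error 0.09, adjusted p = 0.0289). miRNA-450a-5p read 10.4, 9.27, 9.56 and 9.7 in SAMR1-10wk and 12.1, 11.4, 13.8 and 11.6 in SAMP1-10wk, a 1.25-fold difference (log2 0.33, standard error 0.07, adjusted p = 0.00974). Neither overlapped between the strains. Without SAMR1-10wk animals 4 or 5, or SAMP1-10wk animals 5 or 6, the adjusted p of miRNA-322-5p was between 0.0774 and 0.0959. This miRNA did not pass in 8 of 18 other settings, among them the slide column as a block (adjusted p = 0.0649).

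miRNA-503-5p, the neighbour of miRNA-322-5p in the same long non-coding RNA gene C430049B03Rik, read 2.76, 3.25 and 2.78 in 3 SAMR1-10wk kidneys, was not detected in animal 5, and read 3.54, 3.74, 6.32 and 3.83 in SAMP1-10wk. The strains did not overlap, but SAMP1-10wk animal 5 stood far above the other 3. The log2 difference was 0.78 (standard error 0.28, adjusted p = 0.131), and without SAMP1-10wk animal 5 it was 0.59 (adjusted p = 0.414). The processed signal gave 0.48 (adjusted p = 0.0181), and both probes were higher in every SAMP1-10wk kidney, by 1.57 and 1.34 times. Of 12 listed miRNAs of the cluster 3 were tested and 2 rose, beside the same 4.20% among all tested. The count of 2 was 1 with quantile normalization, 0 without scaling, and 0 with the 75th percentile over miRNAs detected on all arrays. miRNA-322-3p was detected in 3 SAMP1-10wk kidneys and in no SAMR1-10wk kidney. Of 6 tested miRNAs with the seed of miRNA-322-5p the other 5 did not pass, with log2 differences between 0.09 and 0.14.

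**Figure D3:**
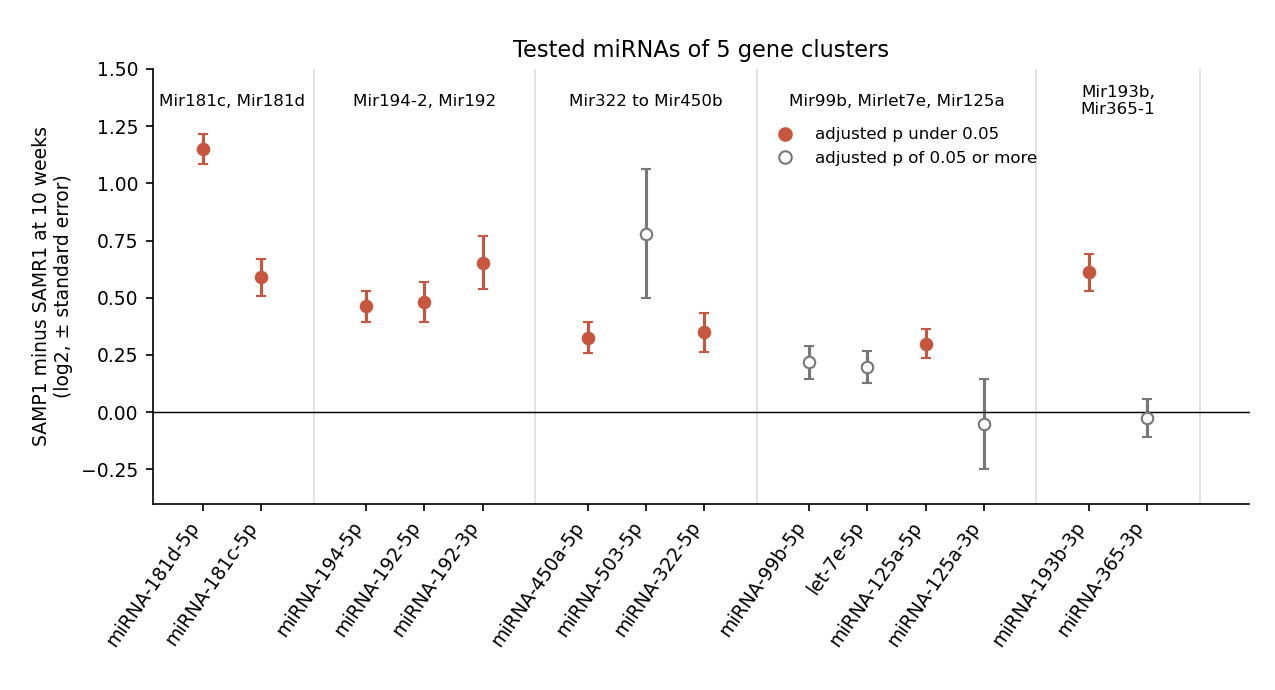
The strain difference at 10 weeks (log2, with its standard error) is plotted for the tested miRNAs of 5 gene clusters. Filled points passed an adjusted p of 0.05: miRNA-181c-5p and miRNA-181d-5p, the 3 products of the miR-192/194 genes, 2 of 3 of the X-linked cluster, and 1 member each of the other two, miRNA-193b-3p and miRNA-125a-5p.

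Single miRNAs of other genes rose as well. miRNA-34a-5p, a direct target of p53 that restrains proliferation and Sirt1, read 59.8, 78.9, 74.6 and 63.7 in SAMR1-10wk and 111, 116, 139 and 119 in SAMP1-10wk. The lowest SAMP1-10wk kidney was well above the highest SAMR1-10wk kidney. The 1.76-fold difference (log2 0.82, standard error 0.10, adjusted p = 0.000284) was, after that of miRNA-181d-5p, the largest among the 13 of the 17 miRNAs that were detected on all 8 arrays. Its gene stands alone on chromosome 4. Its seed relative miRNA-34b-5p differed by 0.34 (adjusted p = 0.243) and miRNA-34c-5p by 0.06 (adjusted p = 0.873).

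miRNA-193b-3p, known from adipocyte and muscle differentiation, read 14.3, 12.1, 12.9 and 15.6 in SAMR1-10wk and 21.2, 20.6, 20.3 and 21.2 in SAMP1-10wk, 1.53-fold higher (log2 0.61, standard error 0.08, adjusted p = 0.000400). Its genomic neighbour within the same lncRNA gene at chr16:13449523-13453926, miRNA-365-3p, differed by -0.02 (standard error 0.08, adjusted p = 0.897). miRNA-193a-3p, which has the same seed but another gene, differed by -0.20 (adjusted p = 0.243).

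miRNA-33-5p lies within Srebf2 and lowers the cholesterol exporter Abca1. It read 6.71, 7.01, 6.24 and 6.04 in SAMR1-10wk and 8.18, 8.61, 12.0 and 9.03 in SAMP1-10wk, 1.44-fold higher (log2 0.53, standard error 0.13, adjusted p = 0.0332). The adjusted p exceeded 0.05 without 6 of the 8 kidneys taken singly and reached 0.0984, the exceptions being SAMR1-10wk animal 4 and SAMP1-10wk animal 3. The miRNA did not pass in 8 of 18 other settings, among them the slide column as a block (adjusted p = 0.0858) and no scaling (adjusted p = 0.0506). The spot signals of 1 of its probes overlapped between the strains.

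miRNA-9-5p, best known from neural progenitors, read 12.2, 11.1, 12.1 and 13 in SAMR1-10wk and 16.6, 15.3, 16.3 and 16.5 in SAMP1-10wk, 1.34-fold higher (log2 0.42, standard error 0.08, adjusted p = 0.00463). The strains were apart by more than the range within SAMR1-10wk. The other arm, miRNA-9-3p, differed by 0.32 (adjusted p = 0.0547). The 3 genes that give miRNA-9-5p lie on chromosomes 3, 7 and 13, and the array does not tell them apart.

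miRNA-125a-5p, of the lin-4 family, read 92.95, 88.3, 88.5 and 92.2 in SAMR1-10wk and 119, 105, 116 and 106 in SAMP1-10wk, 1.23-fold higher (log2 0.30, standard error 0.06, adjusted p = 0.0112). It was the smallest of the 16 increases, and it missed the threshold with the 90th (0.20, adjusted p = 0.0905) and the 75th percentile over miRNAs detected on all arrays, without scaling, with quantile normalization and without a filter (adjusted p up to 0.125). Its neighbours in Spaca6 at chr17:17830194-17830879, miRNA-99b-5p and let-7e-5p, differed by 0.22 (adjusted p = 0.108) and 0.20 (adjusted p = 0.131), and miRNA-125b-5p, of the same seed, by 0.23 (adjusted p = 0.0942).

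The 1 miRNA that was lower in SAMP1-10wk at the threshold was miRNA-1897-5p, for which no function is given here. It read 10.0, 11.9, 11.5 and 12.2 in SAMR1-10wk and 8.30, 8.90, 8.09 and 9.12 in SAMP1-10wk, a fold of 0.757 (log2 -0.40, standard error 0.08, adjusted p = 0.00675). Both of its probes, of 14 and 15 bases, were lower in every SAMP1-10wk kidney. Without scaling the difference was -0.14 (adjusted p = 0.611), and without a filter its adjusted p was 0.0529. Among the probes of the 17 miRNAs, 3 had spot signals that overlapped between the strains, both of miRNA-3095-3p and 1 of miRNA-33-5p.

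A further 7 miRNAs differed by more than 2-fold without passing the adjusted p. They were undetected in some kidneys or varied widely between them. miRNA-205-5p, of squamous and transitional epithelium, was detected in 1 SAMR1-10wk kidney, animal 4, at 6.33, and read 6.69, 6.57, 8.5 and 8.2 in SAMP1-10wk (log2 difference 1.94, standard error 0.58, adjusted p = 0.0719). It entered the test only through SAMP1 groups. Without SAMR1-10wk animal 4 only floors remained in that group, and the difference from them was 2.51 (adjusted p = 0.0114). Leaving out any other single kidney gave an adjusted p of 0.106 to 0.207. On the processed signal the difference shrank to 1.09, at an adjusted p of 0.124. Spot signals of its probe of 15 bases overlapped between the strains, and those of its probe of 16 bases did not. miRNA-802-5p, known from hepatic glucose metabolism, was also detected in 1 SAMR1-10wk kidney, animal 1, at 2.58, and read 3.81, 2.91, 7.21 and 3.65 in SAMP1-10wk (log2 difference 1.44, standard error 0.40, adjusted p = 0.0560). Without that kidney only floors remained in SAMR1-10wk, and the difference from them was 1.70 (adjusted p = 0.0284). Dropping any other single kidney left the adjusted p at 0.0603 to 0.195. A p under 0.05 came out under 8 of 17 alternatives and was missed under 9. The 8 held the 10-week arrays alone (adjusted p = 0.0448) and the processed signal (0.99, adjusted p = 0.0197). The 9 held the block by slide column (adjusted p = 0.114) and the 90th percentile over miRNAs detected on all arrays (adjusted p = 0.0718). By total gene signal the strains did not overlap for either miRNA.

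The other 5 were miRNA-6981-5p, miRNA-181a-1-3p, miRNA-483-5p and the pair of erythroid miRNAs. miRNA-6981-5p was detected in 2 SAMR1-10wk kidneys and in all SAMP1-10wk kidneys (log2 difference 1.41, adjusted p = 0.0763). miRNA-483-5p, from the imprinted Igf2 gene, was detected in 3 kidneys of each strain and had a log2 difference of -1.31 (adjusted p = 0.0803). miRNA-451a read 985, 1726, 139.9 and 304 in SAMR1-10wk and 60.1, 87.6, 359 and 746 in SAMP1-10wk, and miRNA-144-3p, cut from the same transcript, read 47.9, 82.97, 2.94 and 13.46 against 16.2 and 34.1 in 2 SAMP1-10wk kidneys and no detected signal in animals 3 and 4. The signal of both ranged more within each strain than between the strains, with log2 differences of -1.42 (standard error 0.91, adjusted p = 0.382) and -1.92 (standard error 1.18, adjusted p = 0.356).

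The markers of the labelled tissue were present. Of 18 listed miRNAs of kidney epithelium 17 were detected and tested, all with a difference above 0 on the main scaling, from 0.02 to 0.48, and a median of 0.12 against 0.02 over all tested miRNAs. Of these 17, miRNA-192-5p and miRNA-194-5p rose and none fell, where 4.20% of all tested miRNAs rose and 0.262% fell. The brightest of the rest, miRNA-30c-5p and miRNA-30a-5p, differed by 0.05 (adjusted p = 0.691) and 0.07 (adjusted p = 0.529). With the 90th percentile over miRNAs detected on all arrays the median of the list was 0.02, 7 of the 17 differences lay below 0 and the same 2 counts were obtained, against a median of -0.08 over all tested miRNAs. The summed scaled signal of the list was 8379 to 8882 in SAMR1-10wk and 9313 to 10080 in SAMP1-10wk. In pieces of whole cortex, fewer cells of a type and less of a miRNA per cell cannot be told apart.

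Markers of other cells differed as follows. Of 7 tested miRNAs of leukocytes, miRNA-342-3p alone passed (4.20% of all tested miRNAs rose), and it was detected in no SAMR1-10wk kidney and missed the threshold with the processed signal. The other 6, detected on all 8 arrays, did not pass and had a median of 0.20. miRNA-142a-3p, the pan-leukocyte marker, differed by 0.28 (adjusted p = 0.342), miRNA-142a-5p by 0.33 (adjusted p = 0.318) and miRNA-155-5p by 0.11 (adjusted p = 0.823). Their summed signal was 177 to 227 in SAMR1-10wk and 189 to 248 in SAMP1-10wk, so the strains overlapped. The summed signal of the 4 miRNAs of erythrocytes on the array was 143 to 1828 and 60.1 to 789. Both endothelial forms of miRNA-126a were between 0.06 and 0.21 and did not pass. The part of these cells in the results was not tested.

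Of 6 tested miRNAs of fibroblasts and smooth muscle none passed, from -0.29 to 0.27, with a median of 0.10 whose sign turned when arrays were scaled by miRNAs detected on all arrays. Under that scaling miRNA-199a-5p and miRNA-214-3p were lower at the threshold. Of 10 miRNAs known from muscle, liver, neurons or islets, miRNA-122-5p of liver, miRNA-124-3p of neurons, miRNA-206-3p of muscle and miRNA-375-3p of islets were undetected on all 8 arrays. Of the 5 tested, miRNA-9-5p rose, beside 4.20% of all tested, and without scaling it did not pass (adjusted p = 0.0506). The median of the 4 detected on all 8 arrays was 0.35, against 0.02 over all such miRNAs, and miRNA-1a-3p of muscle differed by 0.77 (adjusted p = 0.0719). The summed signal of this list was 29.9 to 32.2 in SAMR1-10wk and 36.5 to 51.5 in SAMP1-10wk, and miRNA-9-5p is part of it. None of 3 miRNAs of squamous and transitional epithelium passed, of which 1 was detected on all 8 arrays (0.09).

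**Figure D4:**
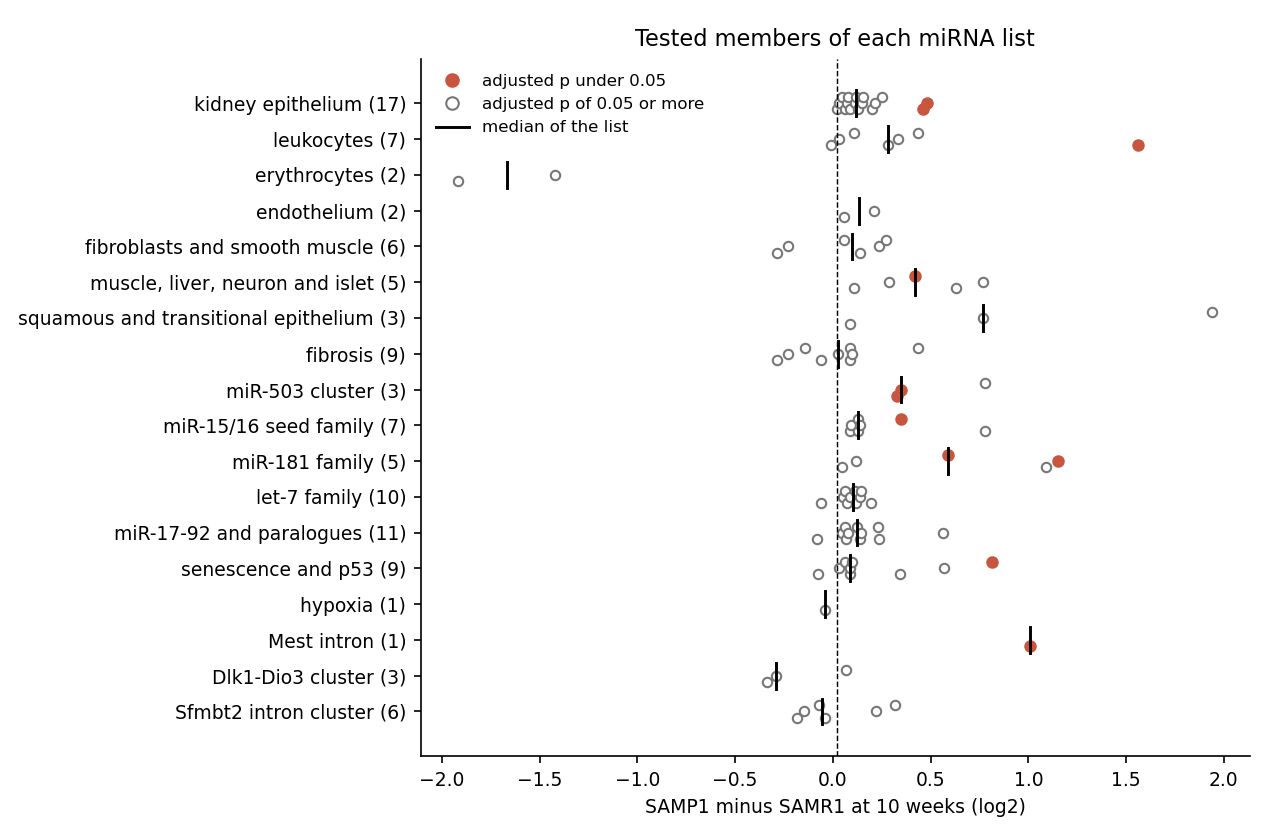
Each point is a tested member of a miRNA list, placed by its strain difference at 10 weeks (log2). Short bars mark the median of a list and the dashed line the median of all tested miRNAs, 0.02, and filled points passed an adjusted p of 0.05.

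Lists drawn from the question of the study were counted beside the 4.20% of all tested miRNAs that rose. In the fibrosis list 0 of 9 tested miRNAs passed (median 0.03, and -0.02 over the 8 detected on all 8 arrays), while with the 90th or the 75th percentile over miRNAs detected on all arrays miRNA-199a-5p and miRNA-214-3p were lower at the threshold. miRNA-21a-5p, known as a pro-fibrotic miRNA of the kidney, differed by -0.14 (adjusted p = 0.743) with every SAMP1-10wk kidney below every SAMR1-10wk kidney, and miRNA-29a-3p, which lowers collagens, by 0.10 (adjusted p = 0.547). In the list of senescence and p53, miRNA-34a-5p was the 1 of 9 tested that rose (median 0.09), beside 4.20% and 0.02 over all tested. None of the 10 tested let-7 miRNAs passed (median 0.10). The medians of these 3 lists turned below 0 with the 75th percentile over miRNAs detected on all arrays. None of 11 tested miRNAs of miR-17-92 and its paralogues, known from proliferation, passed (median 0.12, and 0.03 with the 90th percentile over miRNAs detected on all arrays). With quantile normalization miRNA-19b-3p passed, as did let-7e-5p of the let-7 list. With the 10-week arrays alone miRNA-19a-3p and miRNA-19b-3p passed. The hypoxia miRNA miRNA-210-3p differed by -0.04 and did not pass, and without scaling its sign turned.

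Among imprinted and repeat-like clusters, 3 of 35 miRNAs of the Dlk1-Dio3 cluster on the array were tested and none passed (median -0.29). In the Sfmbt2 cluster 6 of 29 were tested and none passed (median -0.06, above 0 without scaling). The Mest list had 1 tested member, miRNA-335-5p. Of the 16 miRNAs that the study named from these same arrays, and which are therefore no independent evidence, 4 passed as higher at 10 weeks, as 4.20% of all tested miRNAs did. Of these, miRNA-181d-5p was detected in all SAMR1-10wk kidneys, and miRNA-3095-3p, miRNA-3091-5p and miRNA-342-3p in none, so that their differences were taken from the floors. miRNA-467a-3p differed by -0.19, miRNA-1231-5p by 0.69 and let-7d-3p by -0.06, and none of these passed. With the processed signal all 3 changed sign, to 0.48 for miRNA-467a-3p (adjusted p = 0.00601), -0.0394 for miRNA-1231-5p and 0.0907 for let-7d-3p. With undetected signals left at the deposited value of 0.1, let-7d-3p differed by 2.54 (adjusted p = 0.0199). miRNA-16-5p, a qRT-PCR reference of the study for human serum and not for kidney, differed by 0.09. miRNA-423-5p, the study's other reference for serum, differed by -0.05. Neither passed (median 0.02, and -0.08 with the 90th percentile over miRNAs detected on all arrays).

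The strain difference was also taken in the 50-week-old mice, on the second slide, and compared with that at 10 weeks. There 180 of 381 miRNAs (47.2%) passed the adjusted p, 26 (6.82%) higher and 154 (40.4%) lower in SAMP1-50wk, with a median of -0.21 on the log2 scale, and 22 (5.77%) also exceeded 2-fold. That split followed the scaling, and with the 90th percentile over miRNAs detected on all arrays 29 were higher and 46 lower, with a median of -0.06. Without scaling it turned, with 280 higher, 0 lower and a median of 0.57. Of the 17 miRNAs of the young kidneys, 8 passed in the same direction at 50 weeks. These were miRNA-3095-3p (2.15), miRNA-3091-5p (1.25), miRNA-342-3p (2.56), miRNA-181d-5p (0.90), miRNA-181c-5p (0.38), miRNA-34a-5p (0.40), miRNA-193b-3p (0.27) and miRNA-1897-5p (-0.24). With the 90th percentile over miRNAs detected on all arrays 7 did, without miRNA-3091-5p (1.39, adjusted p = 0.0535) and miRNA-1897-5p (-0.10, adjusted p = 0.482) and with miRNA-194-5p. The count was 6 with the 75th percentile over the same miRNAs, 7 with quantile normalization and 16 without scaling. miRNA-3095-3p, miRNA-3091-5p and miRNA-342-3p entered the test only through SAMP1 groups, so their differences at 50 weeks rest in part on SAMR1-50wk floors. miRNA-125a-5p was lower in SAMP1 at 50 weeks (-0.29, adjusted p = 0.00296) and higher at 10 weeks on the main scaling, and with the other it passed at neither age (-0.15, adjusted p = 0.0913, at 50 weeks). The values at 50 weeks were 0.05 for miRNA-192-5p and 0.04 for miRNA-194-5p, and 0.20 and 0.19 with the 90th percentile over miRNAs detected on all arrays.

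The difference between the ages itself passed an adjusted p of 0.05 for 102 tested miRNAs (26.8%), 95 of them (24.9%) with the higher value at 10 weeks. It passed for 10 of the 17, all with the higher value at 10 weeks: miRNA-34a-5p, miRNA-192-3p, miRNA-193b-3p, miRNA-33-5p, miRNA-192-5p, miRNA-194-5p, miRNA-9-5p, miRNA-322-5p, miRNA-450a-5p and miRNA-125a-5p. The sizes were 0.34 to 0.72, against a median of 0.25 over all tested miRNAs. This count depended on the scaling. With the 90th percentile over miRNAs detected on all arrays the median over all tested miRNAs was 0.0064, and of the 17 only miRNA-125a-5p passed (0.35, adjusted p = 0.0475). Age and slide cannot be told apart here, while each strain difference was taken within 1 slide.

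**Figure D5:**
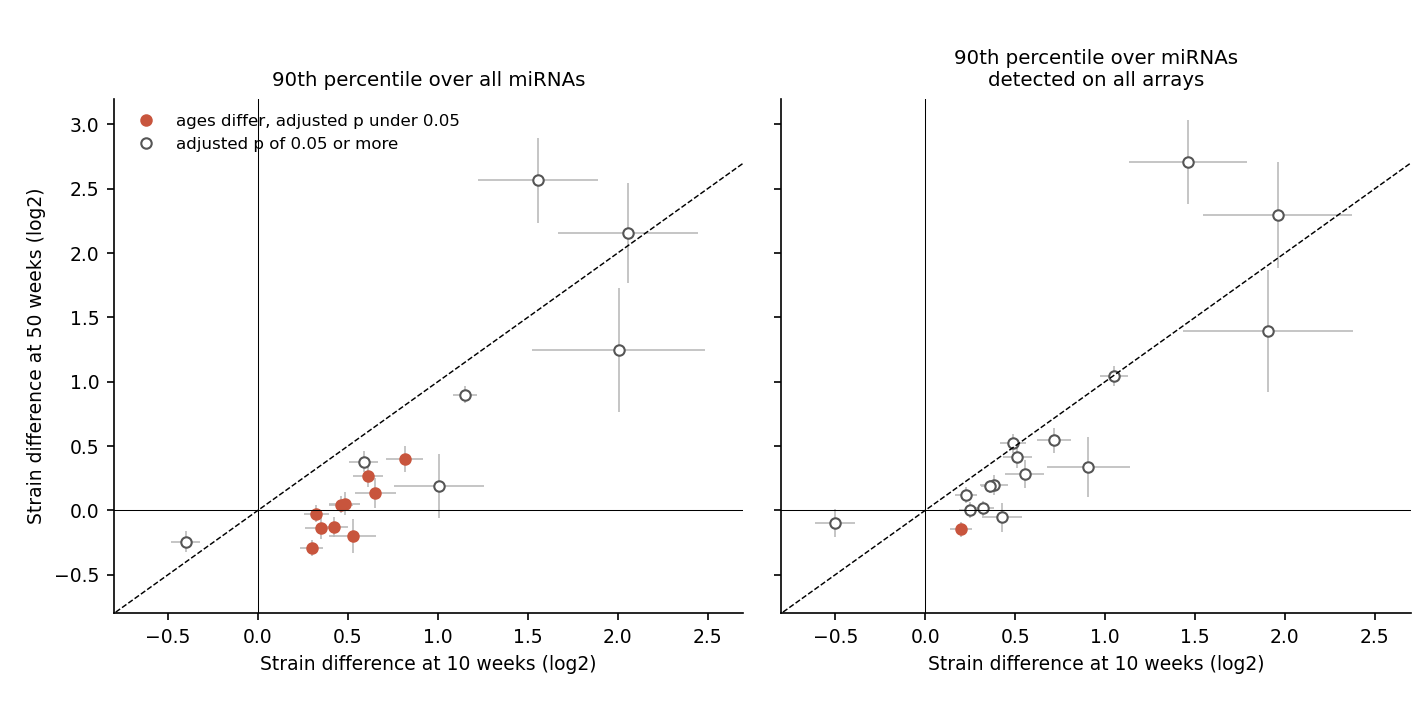
The strain difference at 50 weeks (log2, vertical axis) is plotted against that at 10 weeks (horizontal axis) for the 17 miRNAs, with the main scaling and with scaling by miRNAs detected on all arrays. Filled points are miRNAs for which the ages differed at an adjusted p under 0.05, 10 with the main scaling and 1 with the other, and the dashed line marks equal values.

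Over 2-fold, the difference between the ages passed for 10 miRNAs (2.62%), none of which was among the 17. In 7 of them the strain difference was lower at 10 weeks than at 50 weeks. Among them were some members of the leukocyte list, with 0.28 at 10 weeks and 1.55 at 50 weeks for miRNA-142a-3p, 0.33 and 1.69 for miRNA-142a-5p, and 0.11 and 1.43 for miRNA-155-5p. For the erythroid miRNAs miRNA-451a and miRNA-144-3p it was -1.42 and -1.92 at 10 weeks and 4.02 and 4.88 at 50 weeks. Of these 5, none passed at 10 weeks. Other members of the leukocyte list did not pass for the difference between the ages. It was -0.08 for miRNA-146a-5p (adjusted p = 0.769), -0.61 for miRNA-150-5p (adjusted p = 0.102) and -1.01 for miRNA-342-3p (adjusted p = 0.130).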

How the data were processed

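Kidney cortex RNA of 8 male mice of 10 weeks, 4 SAMP1 and 4 SAMR1, was analysed from the scanner output that the authors deposited, with the 8 arrays of 50 weeks sharing the estimate of the spread. As deposited, the intensity of each spot and miRNA came from Agilent Feature Extraction 12.0.3.1, background-subtracted and without scaling between arrays. Per the file headers these are the total gene signal per miRNA, summed over detected probes and listed at 0.1 where none was detected, and the raw and processed signals per spot. The authors also deposited log2 values of the same arrays, scaled per array and centred on SAMR1-10wk, which served as an alternative.

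Total gene signals were divided by the 90th percentile of their array over all 1881 miRNAs, set no lower than the lowest signal detected on that array, and brought to a common level, which was 3.59 on the log2 scale. A miRNA was tested if a group of the series had it detected on each of its 4 arrays, which left 381. Group means were fitted in limma 3.58.1 (R 4.3.3), with Benjamini-Hochberg adjustment over those miRNAs. The thresholds were an adjusted p under 0.05 alone, and with a fold change over 2. The difference from a group that was undetected throughout is taken from its floors and is no limit on the fold. Measures of the arrays had exact two-sided permutation tests of group means. Files were read with Python 3.11.15, pandas 2.3.3, numpy 2.4.6 and scipy 1.17.1, and matplotlib 3.10.9 drew the figures. The fit was checked on simulated data. The number of arrays limits the precision, no spot was saturated, and no 2 arrays held identical values.

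The members and lists were chosen with earlier results of these data known. The text names the miRNAs past both thresholds at 10 weeks or in the difference between the ages, the 8 highest and 8 lowest differences at an adjusted p under 0.05 among miRNAs detected on all 8 arrays without overlap, the miRNAs that the study named, and the brightest or called members of the lists. miRNA-125a-5p, miRNA-483-5p, miRNA-6516-3p, further list members such as miRNA-1a-3p and miRNA-214-3p, and the cluster, hairpin or seed relatives of the called miRNAs, such as miRNA-365-3p, miRNA-99b-5p, miRNA-9-3p and miRNA-34b-5p, entered the text once their values were known. The alternatives were other signals, background corrections, scalings, filters, floors and tests, blocks by slide column or animal number, and each array left out in turn. Gene positions are those of RefSeq for GRCm38.p6, as spans of genes without exons.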

Additional observations from a re-analysis of the deposited data

Results flagged for a closer look

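In 64 sets of 4 values checked for 1 value far from the others, of which chance flags about 1 in 20, 3 stood out. SAMP1-10wk animal 5 read 8.90 for miRNA-194-5p on the log2 scale, against 8.78 to 8.79 in the other 3 SAMP1-10wk kidneys. The same kidney read 2.66 for miRNA-503-5p, against 1.83 to 1.94. This kidney was the highest of the 4 for 8 of the 16 miRNAs higher in SAMP1-10wk (50.0%) and for 143 of all 381 tested miRNAs (37.5%). The lowest detected signal before scaling was 1.24 in SAMR1-10wk animal 5, which raises its floor.

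The strain difference at 10 weeks minus that at 50 weeks passed an adjusted p of 0.05 in limma for 10 of the 17 miRNAs, in log2 units. It was 0.41 for miRNA-34a-5p, 0.52 for miRNA-192-3p, 0.34 for miRNA-193b-3p, 0.72 for miRNA-33-5p, 0.43 for miRNA-192-5p, 0.42 for miRNA-194-5p, 0.55 for miRNA-9-5p, 0.49 for miRNA-322-5p, 0.35 for miRNA-450a-5p and 0.59 for miRNA-125a-5p. The median over all tested miRNAs was 0.25.

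Over 2-fold it passed for 10 others. It was -1.27 for miRNA-142a-3p, -1.36 for miRNA-142a-5p, -1.32 for miRNA-155-5p, -6.79 for miRNA-144-3p, -5.44 for miRNA-451a, -1.53 for miRNA-132-3p and -1.21 for miRNA-6971-5p. It was 1.74 for miRNA-181a-1-3p, 1.43 for miRNA-290b-3p and 1.15 for miRNA-298-5p. In none of the 7 alternatives run for this difference did the last 3, miRNA-132-3p or miRNA-6971-5p pass both thresholds.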

How the results depend on the processing

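All 17 miRNAs kept their direction in the 302 values from alternatives, but many of these settings change only the test or the filter and leave the difference as it is. Leaving out 1 array cannot turn a direction where the groups do not overlap, as for all 17. Of the 136 values with 1 array left out, 115 stayed on the same side of the threshold. The count of 5 over 2-fold was 1 with the processed signal, 0 with normexp, 8 without scaling, 1 with only those miRNAs tested that were detected on all 16 arrays, 10 by the methods' Tukey test unadjusted, 1 after its Benjamini-Hochberg adjustment, 17 with no fold limit, and 3 to 6 with single arrays left out. It was 3 without SAMR1-10wk animal 5 and 3 without SAMP1-10wk animal 4, where miRNA-3091-5p and miRNA-335-5p were lost. With normexp the differences of dim miRNAs shrank, to 0.10 for miRNA-181d-5p. The count of 17 was 11 without a filter, 44 by Tukey unadjusted, 11 adjusted, 35 with the 10-week arrays alone, and 14 to 18 with single arrays left out. The count of 10 for the difference between ages was 6 with the processed signal, 2 with normexp, 5 with the 90th and 3 with the 75th percentile over miRNAs detected on all arrays, 5 with quantile normalization, 5 without scaling, and 8 to 12 with single arrays left out (those of 50 weeks were chosen after seeing the data).

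Animal numbers 4 and 5 are shared by the strains, but same-numbered kidneys did not deviate together (correlations -0.12 and -0.428 of their deviations from the group means across miRNAs). In a fit with the animal number as a replicate block, a kidney whose number no other kidney shares carries no weight. Fewer kidneys then set the differences and the spread. With this block the counts were 1, 1 and 0. The 1 was miRNA-6516-3p, and none of the 5 or of the 17 passed, with log2 differences of 1.21 for miRNA-181d-5p (adjusted p = 0.0515), 1.88 for miRNA-3091-5p, 0.81 for miRNA-34a-5p and 0.56 for miRNA-192-5p.

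Without scaling the difference between ages turned to -0.10 for miRNA-34a-5p, -0.0013 for miRNA-192-3p, -0.18 for miRNA-193b-3p, -0.0888 for miRNA-192-5p, -0.10 for miRNA-194-5p, -0.0299 for miRNA-322-5p and -0.17 for miRNA-450a-5p. The strain difference at 10 weeks of miRNA-155-5p turned to -0.0011 with the 75th percentile, and that of miRNA-1231-5p to -0.0394 with the processed signal and -0.0251 with normexp. That of miRNA-467a-3p turned to 0.48 with the processed signal (adjusted p = 0.00601), 0.0108 with normexp, 0.0785 without scaling, 0.0261 with quantile normalization, and 1.56 with signals as deposited and with the authors' values. That of let-7d-3p turned to 0.0907, 0.20 and 0.35 with the processed signal, no scaling and quantile normalization, to 2.54 with signals as deposited and 2.54 with the authors' values (adjusted p = 0.0182), and lay between -0.1118 and 0.0145 with single arrays left out, above 0 without SAMR1-10wk animal 5. The causes were not tested. The error given for 1 array was 12.9% to 31.7% for the 5 miRNAs over 2-fold.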
